A study of Mus musculus with 60 samples.

Results

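Inguinal white adipose tissue, the subcutaneous fat depot of the groin, was compared between Glp1rfl/fl mice given mGIPR-Ab/P1 and Glp1rfl/fl mice given vehicle, with 5 libraries in each group. These 10 libraries were chosen by their labels for tissue, genotype and treatment, out of 60 libraries in the series. The agent mGIPR-Ab/P1 joins a GLP-1 peptide to an antibody that binds the receptor for GIP, a gut hormone like GLP-1. The mice of both groups had diet-induced obesity, and both carried loxP-flanked Glp1r alleles. The sources used here do not give age, sex, dose, duration of treatment or feeding state at collection. The same table holds 5 libraries of Glp1rWnt1-/- mice given vehicle, a Glp1r knockout line named after Wnt1, a gene of the embryonic neural tube and neural crest. Those 5 libraries entered no comparison, but they added to the estimate of spread and to the choice of genes tested, since a gene needed 1 FPKM in at least 5 of the 15 libraries. The labels number biological replicates but do not say whether they came from separate cages or days.

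Adipocytes store triglyceride that they build from circulating fatty acids or make from glucose and acetate. Genes of cholesterol and fatty acid synthesis share control by the SREBP transcription factors, which are released from the endoplasmic reticulum when sterols are scarce or insulin is high. Re-esterification of fatty acids within the adipocyte needs glycerol phosphate, which comes from glycolysis, from glyceroneogenesis through PEPCK or from free glycerol through glycerol kinase. GLP-1 acts on food intake through receptors in the brain, and the GIP receptor is present in both brain and fat.

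The receptor genes themselves were at very different levels in this fat. Glp1r was listed at 0, 0.0051, 0.0046, 0 and 0.0101 FPKM in the conjugate libraries and at 0, 0.0309, 0, 0.0058 and 0 FPKM in the vehicle libraries, far below the minimum for testing. FPKM counts sequenced fragments per length of transcript and total of fragments. Gipr had 5.304, 3.24, 7.397, 7.38 and 2.39 FPKM in the conjugate libraries, against 4.02, 2.16, 2.25, 4.44 and 4.24 FPKM in the vehicle libraries. The groups overlapped for Gipr, and its log2 fold change of 0.42 ± 0.28 (model SE) did not pass the test (adjusted p = 0.497). Wnt1 averaged 0.0359 FPKM with the conjugate and 0.0238 FPKM with vehicle.

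Single libraries stood apart in their cell content, as shown by marker lists summarised as the mean of log2(FPKM + 1). All 10 libraries were rich in adipocyte transcripts, with a mature adipocyte level of 8.78 to 9.45 in the conjugate libraries and 8.19 to 9.22 in the vehicle libraries. Vehicle replicate 2 held lymphoid tissue transcripts: its B cell level was 6.56, against 1.06 to 1.52 in the conjugate libraries and 1.10 to 1.28 in the other 4 vehicle libraries. Of the 17 B cell markers, Ms4a1 reached 61.6 FPKM and Cr2 26.9 FPKM there, and both were under 1 FPKM in all other libraries of the 2 groups. Vehicle replicate 2 also had the lowest adipocyte level, and knockout replicates 1 and 3 had B cell levels of 5.81 and 5.73. Conjugate replicate 5 stood apart by macrophages, with a level of 6.15 for 16 markers, against 3.77 to 4.20 in the other conjugate libraries and 3.70 to 4.90 in the vehicle libraries. Adgre1, which encodes the macrophage antigen F4/80, was at 10.5, 9.87, 14.03, 15.3 and 114 FPKM in the conjugate libraries and at 8.64, 11.1, 15.5, 18.95 and 28.3 FPKM in the vehicle libraries. Vehicle replicate 1 held hepatocyte transcripts (level 5.20, with albumin at 207 FPKM), against 1.14 to 2.19 in the conjugate libraries and 0.98 to 1.89 in the other vehicle libraries. Vehicle replicate 4 held skeletal muscle transcripts at a level of 4.24, against 0.82 to 1.40 in the conjugate libraries and 0.87 to 1.23 in the other vehicle libraries. Depth, as estimated from low values, ran from 34.2 to 40.6 M fragments (M, 1e6) with the conjugate and 32.3 to 37.8 M with vehicle. None of 5 library measures (depth, sum of FPKM, mitochondrial share, genes above 1 FPKM and the share of the top 100 genes) differed between the groups, with the smallest exact permutation p at 0.190 (two-sided, 252 assignments, smallest possible p 0.00794).

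**Figure D1:**
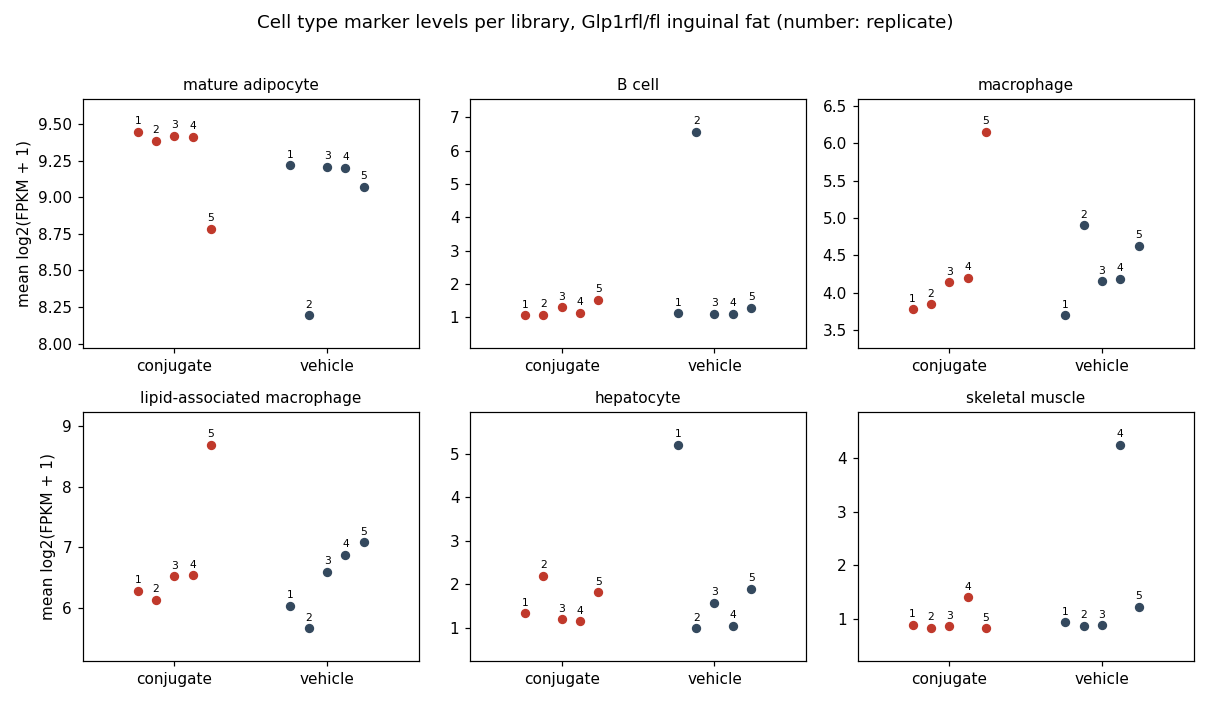
Mean log2(FPKM + 1) of 6 cell type marker lists in the 5 conjugate libraries (left, red) and 5 vehicle libraries (right, blue), each point 1 library with its replicate number. B cell markers were high in vehicle replicate 2 (6.56), macrophage markers in conjugate replicate 5 (6.15), hepatocyte markers in vehicle replicate 1 (5.20) and skeletal muscle markers in vehicle replicate 4 (4.24).

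With the conjugate, 10 of 24 cholesterol genes and 6 of 18 fatty acid synthesis genes tested fell, and the largest rises included Gpx3, Inmt and Chrdl1. Of 12686 genes tested, 293 rose (2.31%) and 137 fell (1.08%) at a limma adjusted p under 0.05, and 213 of the 430 changed by at least 1.5-fold on the log2(FPKM + 1) scale. The 5 conjugate values and the 5 vehicle values did not overlap for 572 genes (4.51%). The median log2 fold change over all genes tested was 0.047, and 59.9% of them had a positive value. For 18 of the 430 calls every library of 1 group was under 1 FPKM, so that these genes were tested through the other libraries alone. Because this is bulk tissue, fewer cells of a type and less RNA per cell cannot be told apart in any of these results. The number of calls depended on the libraries: without vehicle replicate 2 and knockout replicates 1 and 3 it was 1865 higher (14.7%) and 728 lower (5.74%), and all 430 genes were among them with the same sign. Leaving out conjugate replicates 1, 2, 3, 4 and 5 in turn gave 86, 693, 73, 96 and 749 calls, and leaving out vehicle replicates 1 to 5 gave 370, 1076, 96, 116 and 97. A fit of the 10 libraries alone called 30 genes higher and 28 lower, and with median-of-ratios scaling 126 genes were higher and 114 lower.

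The largest rise among genes whose groups did not overlap and whose higher mean reached 5 FPKM was that of Gpx3, the secreted glutathione peroxidase, a selenium enzyme that removes peroxides. It had 316, 183, 297, 278 and 231 FPKM in the conjugate libraries, against 88.98, 62.2, 94.3, 76.6 and 65.9 FPKM in the vehicle libraries, a log2 fold change of 1.73 ± 0.21 (adjusted p = 0.00265). The lowest conjugate library lay well above the highest vehicle library. The 28 selenoprotein and antioxidant genes tested had a median log2 fold change of 0.16. Of these, 3 rose and 0 fell, against 2.31% higher and 1.08% lower over all genes. The other 2 were Gstm1, a glutathione transferase, at 178 ± 26.9 FPKM with the conjugate and 96.7 ± 20.9 FPKM with vehicle (SD, n = 5 each, adjusted p = 0.00988), and Gpx8, a peroxidase of the endoplasmic reticulum, at 20.4 ± 2.56 FPKM with the conjugate and 14.2 ± 2.55 FPKM with vehicle (adjusted p = 0.0302). The broadly expressed peroxidases Gpx1 and Gpx4 did not pass the test, at 521 ± 149 FPKM with the conjugate and 343 ± 39.7 FPKM with vehicle for Gpx1 (adjusted p = 0.0627). Selenop, the plasma carrier of selenium, averaged 634 ± 293 FPKM with the conjugate and 541 ± 66.6 FPKM with vehicle (adjusted p = 0.829). Without vehicle replicate 2 and knockout replicates 1 and 3, the lymphoid-rich libraries, 4 of the 28 rose and 2 fell, with a median of 0.095. That is near the shares over all genes in that fit, 14.7% higher and 5.74% lower with a median of 0.12.

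Other large rises were in genes of unlike function. Pck1, the PEPCK that drives glyceroneogenesis in fat, had 700, 679, 784, 610.4 and 368 FPKM in the conjugate libraries, against 332, 176, 264, 239.9 and 216 FPKM in the vehicle libraries, with the lowest conjugate value in the macrophage-rich replicate 5 and the lowest vehicle value in the lymphoid-rich replicate 2. Its log2 fold change was 1.34 ± 0.21 (adjusted p = 0.00702). Inmt, an N-methyltransferase of indole amines, was at 121, 54.8, 77.9, 56.4 and 128 FPKM with the conjugate and 17.2, 40.1, 35.1, 21.9 and 25.3 FPKM with vehicle (log2 fold change 1.59 ± 0.29, adjusted p = 0.0128). Abat, which breaks down the transmitter GABA, averaged 12.8 ± 1.62 FPKM with the conjugate and 5.99 ± 2.57 FPKM with vehicle (adjusted p = 0.0228). Vnn1, a pantetheinase that releases cysteamine from a product of coenzyme A breakdown, was at 14.5, 7.24, 10.6, 19.7 and 7.06 FPKM with the conjugate and at 4.53, 1.15, 4.29, 4.69 and 4.65 FPKM with vehicle. Vehicle replicate 2 lay far below its group for Vnn1, and without the lymphoid-rich libraries the log2 fold change was 1.11 (adjusted p = 0.0135), against 1.38 with them (adjusted p = 0.0396). Slc1a3, a glutamate and aspartate transporter, had 60.7, 29.2, 41.4, 38.7 and 21.1 FPKM with the conjugate and 16.99, 10.4, 17.03, 14.2 and 13.9 FPKM with vehicle (log2 fold change 1.28 ± 0.25, adjusted p = 0.0204). Stbd1, which tethers glycogen to membranes, averaged 7.94 ± 2.04 FPKM with the conjugate and 3.43 ± 0.956 FPKM with vehicle (adjusted p = 0.0161).

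**Figure D2:**
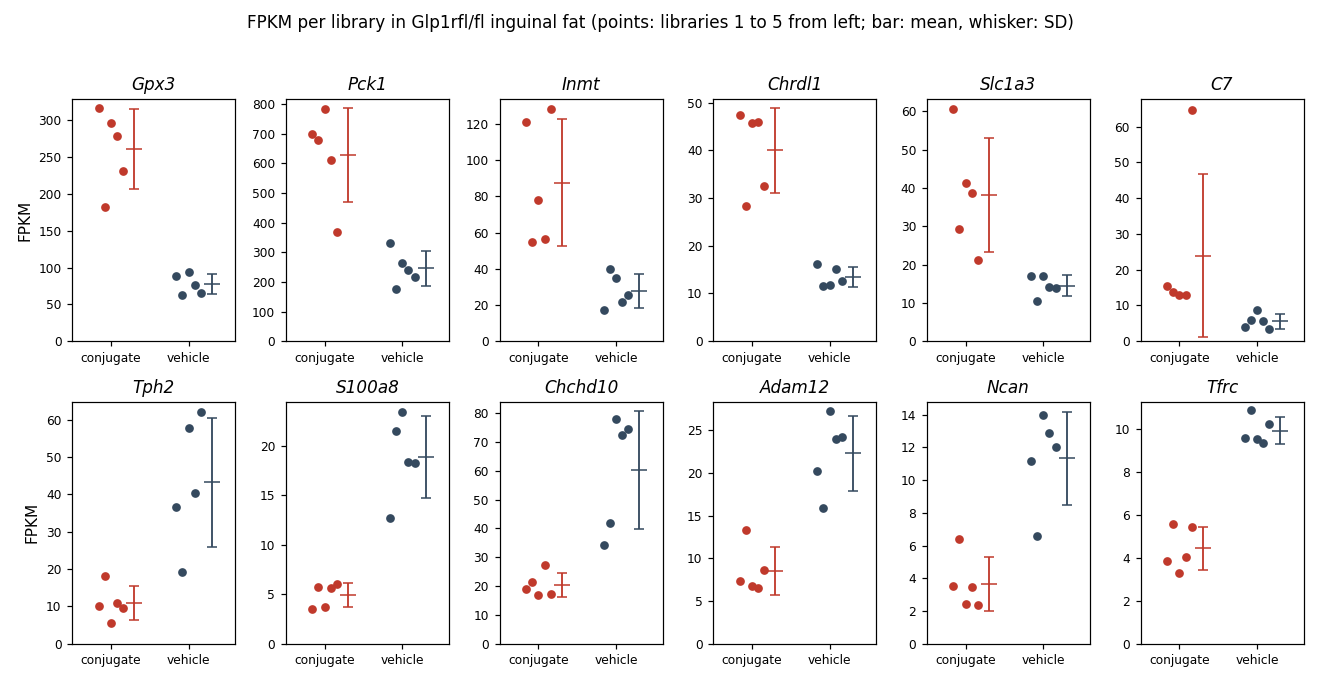
FPKM (linear axis from 0) of 6 genes that rose and 6 genes that fell, in the 5 conjugate libraries (left, red) and 5 vehicle libraries (right, blue), points in order of replicate number, with the mean as a bar and the SD as a whisker. The groups do not overlap for any of the 12 genes, a condition of their choice, and C7 shows 1 conjugate library at 64.5 FPKM, far above the other 4.

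Chrdl1, an antagonist of bone morphogenetic proteins, was at 47.5, 28.3, 45.6, 45.9 and 32.6 FPKM in the conjugate libraries and at 16.2, 11.6, 11.8, 15.1 and 12.5 FPKM in the vehicle libraries (log2 fold change 1.49 ± 0.18, adjusted p = 0.00265). C7, a component of the complement membrane attack complex, had 15.3, 13.7, 13.1, 12.8 and 64.5 FPKM with the conjugate and 3.98, 5.83, 8.72, 5.77 and 3.52 FPKM with vehicle (log2 fold change 1.65 ± 0.36, adjusted p = 0.02798). The highest C7 value was in the macrophage-rich conjugate replicate 5, and without that library the log2 fold change was 1.22 (adjusted p = 0.00407). The proteoglycan gene Podn averaged 33.7 ± 9.77 FPKM with the conjugate and 14.6 ± 2.401 FPKM with vehicle (adjusted p = 0.0125), and Efemp1, which encodes the matrix protein fibulin-3, 103 ± 12.6 FPKM with the conjugate and 54.3 ± 14.4 FPKM with vehicle (adjusted p = 0.0211). The 13 markers of adipose stem and progenitor cells tested had a median of 0.27. Over all genes 2.31% were called higher and 1.08% lower, and of these markers 2 rose and 0 fell. They were Gsn, which encodes the actin-severing protein gelsolin, and F3, tissue factor. Gsn had 4561 to 7127 FPKM in the conjugate libraries and 1727 to 3534 FPKM in the vehicle libraries (adjusted p = 0.0332), and F3 had 26.05 to 39.6 FPKM with the conjugate and 10.6 to 20.2 FPKM with vehicle (adjusted p = 0.0325). Defining markers of that list did not pass the test, with Pdgfra at 11.6 ± 6.01 FPKM with the conjugate and 7.38 ± 2.35 FPKM with vehicle (adjusted p = 0.313). The level of the whole list of 16 markers was 3.95 to 4.43 with the conjugate and 3.88 to 4.38 with vehicle. Of the 13 tested, 5 had a negative log2 fold change, against 40.1% of all genes tested. Without the lymphoid-rich libraries 3 of the 13 rose and 2 fell, against 14.7% higher and 5.74% lower over all genes. Of the remaining largest rises, Chst1, a sulfotransferase, averaged 71.1 ± 14.7 FPKM with the conjugate and 36.7 ± 8.87 FPKM with vehicle (adjusted p = 0.0247), and Dbndd2 10.1 ± 1.78 FPKM with the conjugate and 4.74 ± 0.937 FPKM with vehicle (adjusted p = 0.00468).

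The lists of insulin signalling, immediate early, glucocorticoid and endoplasmic reticulum stress genes had 1 called gene each. Over all genes tested 2.31% were called higher, so 1 call says little about a list of this size. Irs2, an adaptor of the insulin receptor, rose to 8.62, 11.2, 16.6, 10.8 and 11.2 FPKM in the conjugate libraries, against 6.704, 7.14, 6.14, 5.98 and 5.46 FPKM in the vehicle libraries (log2 fold change 0.78 ± 0.16, adjusted p = 0.0228), and was the 1 gene called of 22 insulin signalling and glucose uptake genes tested (median 0.13). Slc2a4, which encodes the insulin-regulated glucose transporter, averaged 64.5 ± 18.02 FPKM with the conjugate and 47.2 ± 12.7 FPKM with vehicle (adjusted p = 0.391). Jun, a subunit of the AP-1 transcription factor, was at 32.3 ± 7.83 FPKM with the conjugate and 19.4 ± 2.24 FPKM with vehicle (adjusted p = 0.0289), the 1 gene called of 13 immediate early genes (median 0.39). Dusp1, a phosphatase of MAP kinases, was at 36.3 ± 10.7 FPKM with the conjugate and 19.02 ± 4.08 FPKM with vehicle (adjusted p = 0.0274) and was the 1 gene called of 16 on the glucocorticoid and fasting list (median 0.19). Xbp1, a transcription factor of the unfolded protein response, was at 74.4 to 92.9 FPKM with the conjugate and 55.99 to 62.2 FPKM with vehicle (adjusted p = 0.0286), the 1 gene called of 20 on the endoplasmic reticulum stress list (median 0.0026).

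Genes of sterol synthesis were among the falls. Of 24 genes of cholesterol synthesis and uptake tested, 10 fell and 0 rose, against 1.08% lower and 2.31% higher over all genes. Of the 24, 22 had a negative log2 fold change (40.1% of all genes tested did). The median was -0.60, against 0.047 over all genes tested. Without the lymphoid-rich libraries 17 fell and 1 rose, with a median of -0.67. That fit called 5.74% of all genes lower and 14.7% higher, with a median of 0.12. The called genes span the pathway: Pmvk, Mvd, Idi1 and Fdps of the mevalonate and isoprenoid steps, Sqle and Lss, which oxidise and cyclise squalene, and Cyp51, Nsdhl, Hsd17b7 and Dhcr7 of the later conversion to cholesterol. Lss had 6.46, 10.2, 6.03, 6.88 and 7.46 FPKM in the conjugate libraries, against 14.7, 11.2, 20.2, 17.6 and 19.2 FPKM in the vehicle libraries (log2 fold change -1.06 ± 0.16). Mvd had 5.22, 5.801, 4.08, 4.69 and 5.705 FPKM with the conjugate and 8.77, 10.4, 11.5, 9.45 and 12.8 FPKM with vehicle (log2 fold change -0.92 ± 0.11, adjusted p = 0.00265). For both genes the groups did not overlap, whereas for Nsdhl the conjugate values of 16.5 to 28.6 FPKM reached into the vehicle range of 25.6 to 54.96 FPKM, whose lowest value was that of replicate 2. Srebf2, which encodes SREBP2, a main activator of the pathway, averaged 10.4 ± 1.27 FPKM with the conjugate and 11.1 ± 8.14 FPKM with vehicle (adjusted p = 0.935). Srebf2 is the 1 gene of the list that rose without the lymphoid-rich libraries, with a log2 fold change of 0.42 (adjusted p = 0.00829). Insig1, a sterol-sensing retention factor of SREBP, averaged 92.1 ± 12.2 FPKM with the conjugate and 177 ± 56.7 FPKM with vehicle, and was called without those libraries (adjusted p = 0.00532) but not with them (adjusted p = 0.0805).

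The promoters of 4 of the called sterol genes with the largest falls are shown because the group moved together, as windows of 250 bases before to 50 bases after the annotated start. They are RefSeq sequences of build GRCm38.p6, written 5′ to 3′ on the strand of the gene, with capitals marking CCAAT or its reverse complement ATTGG. The sources used here do not name the build of the tables, so the windows are tied to the genes by symbol alone.
Lss, chr10:76531355-76531654, plus strand: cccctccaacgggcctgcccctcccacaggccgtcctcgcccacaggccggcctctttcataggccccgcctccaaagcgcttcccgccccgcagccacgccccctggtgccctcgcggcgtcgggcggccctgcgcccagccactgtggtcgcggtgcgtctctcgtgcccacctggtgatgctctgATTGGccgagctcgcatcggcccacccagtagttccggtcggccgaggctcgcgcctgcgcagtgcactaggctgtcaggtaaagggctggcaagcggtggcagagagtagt
Cyp51, chr5:4104648-4104947, minus strand: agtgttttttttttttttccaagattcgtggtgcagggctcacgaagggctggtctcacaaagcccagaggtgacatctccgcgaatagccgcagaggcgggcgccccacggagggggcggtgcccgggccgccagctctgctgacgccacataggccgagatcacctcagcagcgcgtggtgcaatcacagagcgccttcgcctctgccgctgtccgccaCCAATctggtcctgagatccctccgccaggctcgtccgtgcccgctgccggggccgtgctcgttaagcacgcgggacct
Nsdhl, chrX:72918271-72918570, plus strand: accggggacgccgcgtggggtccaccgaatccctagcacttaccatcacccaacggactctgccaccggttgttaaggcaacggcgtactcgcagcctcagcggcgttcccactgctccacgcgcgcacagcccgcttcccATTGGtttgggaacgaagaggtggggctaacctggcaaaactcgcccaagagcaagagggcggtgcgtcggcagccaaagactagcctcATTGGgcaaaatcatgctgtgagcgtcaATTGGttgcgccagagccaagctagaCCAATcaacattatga
Mvd, chr8:122443373-122443672, minus strand: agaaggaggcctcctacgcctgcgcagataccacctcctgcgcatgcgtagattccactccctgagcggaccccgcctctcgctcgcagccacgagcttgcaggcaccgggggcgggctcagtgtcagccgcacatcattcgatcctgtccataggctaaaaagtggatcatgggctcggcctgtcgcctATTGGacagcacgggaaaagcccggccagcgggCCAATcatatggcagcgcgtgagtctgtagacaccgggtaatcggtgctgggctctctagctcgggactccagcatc
CCAAT, the letters bound by the trimeric factor NF-Y, was searched on both strands, as was TCACNCCAC, a core form of the sterol regulatory element, and no matches of these motifs overlapped here. Lss and Cyp51 held 1 CCAAT each, Mvd held 2 and Nsdhl held 4, and none of the 4 windows held TCACNCCAC. A promoter was at hand for 17 of the 25 listed sterol genes, of which 16 held CCAAT in at least 1 window (94.1%), against 43.0% of 9708 tested genes with a promoter. TCACNCCAC was present for 1 of the 17, Hmgcs1 (5.88%), against 1.36% of the tested genes. Hmgcs1 was not called lower. Of the 8 genes called lower that had a promoter, 0 held TCACNCCAC and 8 held CCAAT. The shares of 94.1% and 5.88% describe the whole list, which includes genes that were not called. A match describes letters, and its use was not measured.

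Of 18 fatty acid synthesis genes tested, 6 fell and 1 rose, against 1.08% lower and 2.31% higher over all genes. Of the 18, 10 had a negative log2 fold change, and the median was -0.23. The 6 supply or polymerise acetyl units or desaturate the product: Slc25a1, the mitochondrial citrate carrier, Acly, which splits citrate, Acss2, which activates acetate, Me1, which supplies NADPH, Fasn, the fatty acid synthase, and Scd2, a desaturase. Slc25a1 had 166, 237, 143, 182 and 132 FPKM in the conjugate libraries, against 331, 239, 521, 479 and 441 FPKM in the vehicle libraries (log2 fold change -1.20 ± 0.25, adjusted p = 0.0229). Scd2 had 53.9, 92.9, 35.7, 53.3 and 62.96 FPKM with the conjugate and 153, 105, 148, 162 and 138 FPKM with vehicle (log2 fold change -1.28 ± 0.21, adjusted p = 0.00702). The groups did not overlap for these 2 genes, with conjugate replicate 2 and vehicle replicate 2 nearest to each other. Scd1, the main desaturase of fat by level, averaged 4374 ± 769 FPKM with the conjugate and 4138 ± 1187 FPKM with vehicle (adjusted p = 0.9096), and Srebf1, which encodes SREBP1, 56.7 ± 6.74 FPKM with the conjugate and 54.1 ± 6.95 FPKM with vehicle (adjusted p = 0.873). Fads1, the delta-5 desaturase of polyunsaturated fatty acids, rose to 12.4, 9.39, 12.1, 11.2 and 14.7 FPKM with the conjugate, against 8.11, 7.89, 4.899, 5.75 and 6.01 FPKM with vehicle (log2 fold change 0.79 ± 0.15, adjusted p = 0.0149).

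**Figure D3:**
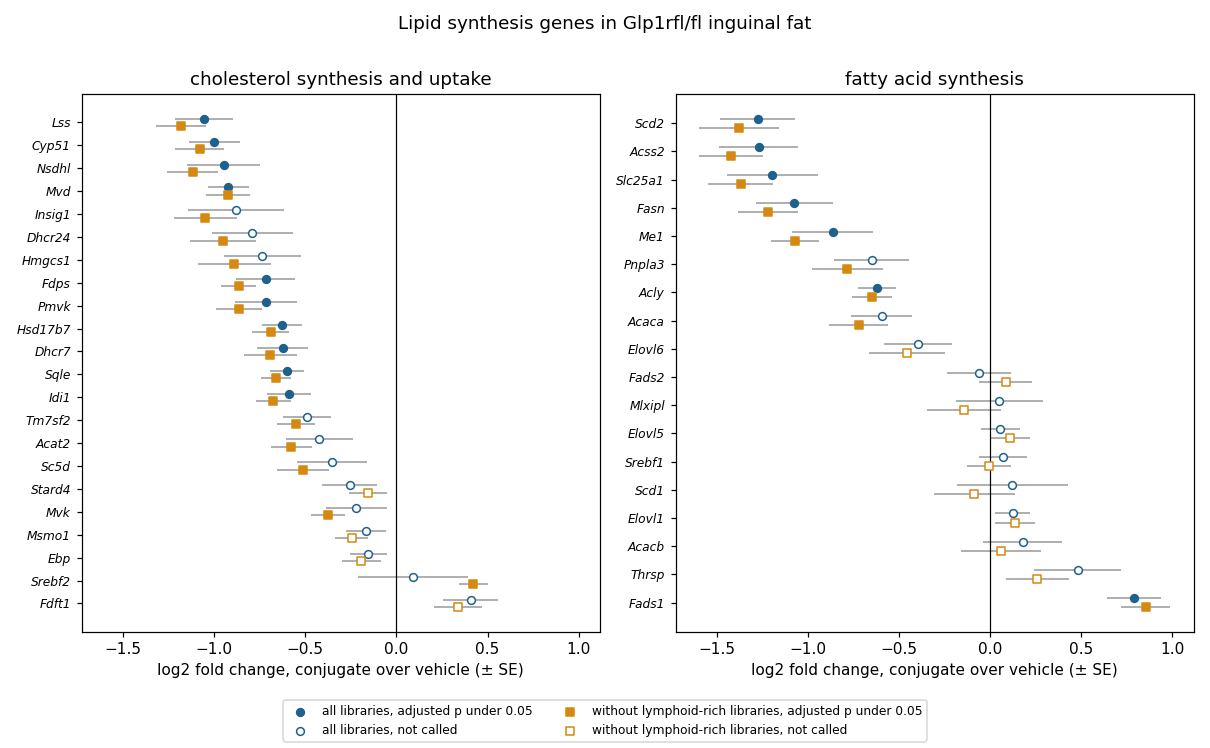
Log2 fold change, conjugate over vehicle, with model SE, for 22 of the 24 cholesterol genes (left) and the 18 fatty acid synthesis genes (right) tested, with all 15 libraries (circles) and without the lymphoid-rich libraries (squares), filled where the adjusted p is under 0.05. In the cholesterol list 10 circles and 18 squares are filled, and in the fatty acid list Fads1 lies at the other end from Scd2 and Acss2.

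Single genes of triglyceride uptake and glycerol use also fell. Angptl8, an insulin-induced inhibitor of lipoprotein lipase, had 7.55, 13, 5.73, 5.895 and 4.53 FPKM with the conjugate and 19.6, 18.1, 40.7, 26.7 and 37.9 FPKM with vehicle. It was the 1 gene called of 14 in its list of fatty acid uptake genes (median 0.0030). Over all genes 1.08% were called lower and 2.31% higher. A single call therefore says little about this list, or about the glycolysis list below. Without the lymphoid-rich libraries 6 of the 14 fell and 0 rose, with a median of -0.17. Lpl itself averaged 2542 ± 394 FPKM with the conjugate and 3371 ± 948 FPKM with vehicle (adjusted p = 0.482). Of 8 glyceroneogenesis and glycerol genes, Pck1 rose and Gk, glycerol kinase, fell, with Gk at 2.16, 3.27, 2.53, 2.65 and 3.01 FPKM with the conjugate and 5.92, 4.49, 7.36, 7.19 and 8.48 FPKM with vehicle. Pfkl, a phosphofructokinase, was the 1 gene called of 15 glycolysis genes, at 31.2 ± 4.25 FPKM with the conjugate and 43.5 ± 5.86 FPKM with vehicle (adjusted p = 0.0431). Its groups overlapped only through the low value of vehicle replicate 2, and without the lymphoid-rich libraries 8 glycolysis genes fell and 1 rose. None of 16 lipolysis genes or 21 glyceride storage genes passed the test. Without the lymphoid-rich libraries 3 lipolysis genes rose and 4 fell, and 0 glyceride storage genes rose and 5 fell, against 14.7% higher and 5.74% lower over all genes in that fit.

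Among markers of thermogenic adipocytes, Ucp1, the uncoupling protein that defines brown and beige fat, averaged 0.151 FPKM with the conjugate and 0.243 FPKM with vehicle and was not tested. Of 10 markers tested, Elovl3 passed the minimum for testing only through vehicle and knockout libraries. Of the other 9, 2 fell and 1 rose, with a median of -0.49, against 1.08% lower and 2.31% higher over all genes. Without the lymphoid-rich libraries 6 of the 9 fell and 1 rose, against 5.74% lower and 14.7% higher over all genes. Elovl3, an elongase of very long fatty acids, was at 0.0716 to 0.328 FPKM with the conjugate, against 1.03 to 3.74 FPKM with vehicle, so its conjugate values were all under that minimum. Pank1, a pantothenate kinase of coenzyme A synthesis, was at 1.19 ± 0.201 FPKM with the conjugate and 2.08 ± 0.273 FPKM with vehicle (adjusted p = 0.0286). Gk was the other of these 2 falls. Ebf2, a transcription factor of beige and of precursor cells, rose to 4.83, 5.08, 5.38, 5.29 and 8.59 FPKM with the conjugate, against 3.84, 2.53, 3.38, 3.15 and 3.28 FPKM with vehicle, with its highest value in the macrophage-rich replicate 5. Dio2, the deiodinase that activates thyroid hormone, lay under the minimum for testing at 0.124 to 0.419 FPKM with the conjugate and 0.4601 to 1.12 FPKM with vehicle. Chchd10, a mitochondrial intermembrane protein gene, fell to 19.1, 21.6, 16.8, 27.2 and 17.2 FPKM with the conjugate, against 34.4, 41.8, 77.9, 72.4 and 74.6 FPKM with vehicle (log2 fold change -1.46 ± 0.31, adjusted p = 0.0259). Vehicle replicates 1 and 2 were well below the other 3 for Chchd10. None of 22 nuclear genes of oxidative phosphorylation was called (median -0.073), against 1.08% lower and 2.31% higher over all genes. Without the lymphoid-rich libraries 3 of the 22 fell and 0 rose, with a median of -0.18. That fit called 5.74% of all genes lower and 14.7% higher, with a median of 0.12.

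The remaining large falls came from genes of unlike function. Tph2, the tryptophan hydroxylase known from serotonin neurons, had 10.2, 18.03, 5.65, 11 and 9.63 FPKM in the conjugate libraries, against 36.5, 19.3, 57.8, 40.3 and 61.9 FPKM in the vehicle libraries (log2 fold change -1.87 ± 0.38, adjusted p = 0.0204). The lowest vehicle value, in replicate 2, was just above the highest conjugate value. Ncan, a chondroitin sulfate proteoglycan best known from brain matrix, was at 3.51, 6.43, 2.41, 3.46 and 2.38 FPKM with the conjugate and 11.2, 6.61, 13.97, 12.9 and 12.1 FPKM with vehicle (log2 fold change -1.44 ± 0.25, adjusted p = 0.00955). Adam12, a metalloprotease of remodelling tissue, was at 7.31, 13.4, 6.73, 6.54 and 8.62 FPKM with the conjugate and 20.2, 15.9, 27.3, 23.96 and 24.2 FPKM with vehicle (log2 fold change -1.31 ± 0.17, adjusted p = 0.00367). Tfrc, the transferrin receptor that imports iron, showed little spread, with 3.84, 5.56, 3.31, 4.02 and 5.45 FPKM in the conjugate libraries and 9.59, 10.9, 9.53, 9.37 and 10.2 FPKM in the vehicle libraries (log2 fold change -1.02 ± 0.16, adjusted p = 0.00642). Pla2g2e, a secreted phospholipase, averaged 4.697 ± 2.27 FPKM with the conjugate and 11.9 ± 3.298 FPKM with vehicle (adjusted p = 0.0429). Col6a3, the 1 gene called of 28 collagen and matrix genes (median -0.058), averaged 42.1 ± 7.397 FPKM with the conjugate and 62.7 ± 7.65 FPKM with vehicle (adjusted p = 0.0355). In the fit of all libraries 1.08% of all genes were called lower and 2.31% higher. Without the lymphoid-rich libraries 7 of the 28 fell and 1 rose, against 5.74% lower and 14.7% higher over all genes.

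S100a8 and Ighm, genes known from blood cells, were also among the falls. S100a8, a calcium-binding protein of neutrophils, was at 3.56, 5.74, 3.71, 5.59 and 6.002 FPKM with the conjugate and 12.7, 21.5, 23.4, 18.4 and 18.3 FPKM with vehicle (log2 fold change -1.74 ± 0.24, adjusted p = 0.003803). It was the 1 gene called of 6 granulocyte and mast cell markers tested, whose median was 0.11, against 1.08% lower and 2.31% higher over all genes. S100a9, also on that list, was not called. The level of the whole list of 12 was 1.03 to 1.88 with the conjugate and 0.95 to 2.62 with vehicle, and its part in the fall of S100a8 was not tested. Ighm, the heavy chain of immunoglobulin M, had 250.3, 442, 219, 294 and 254 FPKM with the conjugate and 577, 1549, 601, 529 and 546 FPKM with vehicle. Its highest value was in the lymphoid-rich vehicle replicate 2, and without the lymphoid-rich libraries Ighm was still called, with a log2 fold change of -0.99 (adjusted p = 0.00714), against -1.28 with them. In the 9 libraries other than vehicle replicate 2 the B cell surface genes Cr2 and Ms4a1 were each under 1 FPKM, while Ighm was at 219 FPKM or more. None of the macrophage (14 tested), lipid-associated macrophage (15), endothelial (16), mural (10), T and NK cell (12) or interferon response (19) genes passed the test. Over all genes 2.31% were called higher and 1.08% lower, so 0 calls say little about lists of this size. Without the lymphoid-rich libraries 2 lipid-associated macrophage genes and 1 T and NK cell gene fell, and the other lists named had 0 calls. That fit called 14.7% of all genes higher and 5.74% lower.

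The same comparison in Giprfl/fl mice, which shares no library with this one, gave 955 calls of 13604 genes tested (7.02%). Of the 425 genes called in Glp1rfl/fl fat and tested in both lines, 419 had the same sign in Giprfl/fl fat (98.6%, against 67.3% of all 12541 genes tested in both). With the same sign, 216 were called in both lines, 128 higher and 88 lower, and 0 were called with opposite signs. The 216 are 24.3% of the Giprfl/fl calls among genes tested in both lines. No gene passed the test of a difference between the lines (0 of 12541 by limma, smallest adjusted p 0.937), with 436 genes at an unadjusted p under 0.05. Across these genes the log2 fold changes had r = 0.43, a description of genes that are not independent. Lymphoid content ran the other way in that line, with B cell levels of 2.20 to 6.05 in its conjugate libraries and 1.61 to 4.71 in its vehicle libraries. Gpx3 averaged 388 ± 97.7 FPKM with the conjugate and 81.4 ± 10.8 FPKM with vehicle in Giprfl/fl fat, and Chrdl1 averaged 43.1 ± 9.21 FPKM with the conjugate and 14.6 ± 1.92 FPKM with vehicle. Tph2 was at 3.67 ± 3.71 FPKM with the conjugate and 35.7 ± 11.1 FPKM with vehicle there, with a log2 fold change of -3.31, and the difference between the lines of 1.45 ± 0.74 had an unadjusted p of 0.0614. Chchd10 was at 12.01 ± 9.11 FPKM with the conjugate and 11.6 ± 2.27 FPKM with vehicle in Giprfl/fl fat. Its effect there was -0.15, and the difference between the lines of -1.31 ± 0.55 had an unadjusted p of 0.0243. Tfrc was not called in Giprfl/fl fat, at 6.896 ± 1.41 FPKM with the conjugate and 9.22 ± 1.58 FPKM with vehicle (adjusted p = 0.118), and its difference of -0.65 ± 0.22 had an unadjusted p of 0.00568.

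**Figure D4:**
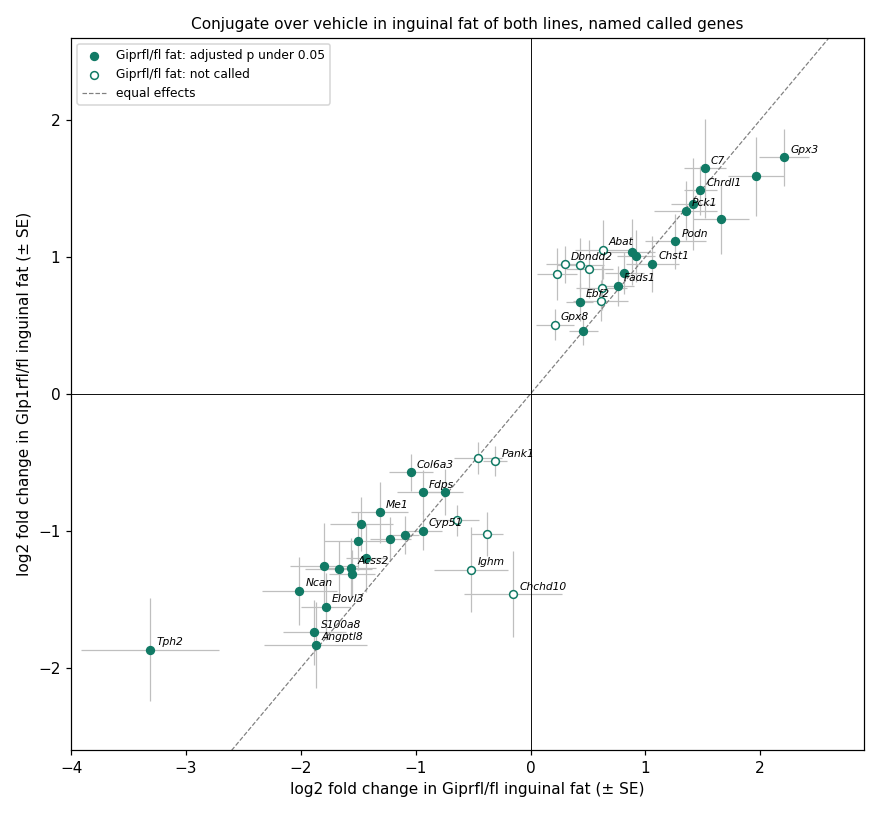
Log2 fold change, conjugate over vehicle, with model SE, in Glp1rfl/fl inguinal fat (vertical) against Giprfl/fl inguinal fat (horizontal) for the 48 named genes called in Glp1rfl/fl fat, filled where also called in Giprfl/fl fat, with gene names where space allows. All points lie in the quadrants of equal sign, Tph2 lies farthest left (-3.31) and Chchd10 near 0 on the horizontal axis (-0.15).

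Liver of the same line was set beside fat to see which effects of the conjugate differed between the tissues. The labels do not say which fat and liver libraries came from the same mouse. Estimated depth in liver ran from 31.7 to 35.5 M fragments with the conjugate and from 47.5 to 54.8 M with vehicle, without overlap. Depth and treatment therefore cannot be told apart in liver, and the part of depth in the differences below was not tested. Of 9834 genes tested in both tissues, the effect differed for 369 (3.75%), more positive in fat for 284 and more negative for 85. Among the 48 named genes called in fat, 16 differed. Gpx3 averaged 4.301 ± 1.2 FPKM with the conjugate and 4.22 ± 0.719 FPKM with vehicle in liver, a difference of effects, fat minus liver, of 1.73 ± 0.29 (adjusted p = 0.00218). Pck1 was at 580.3 ± 103 FPKM with the conjugate and 713 ± 167 FPKM with vehicle in liver (difference 1.62 ± 0.31, adjusted p = 0.00487). For 4 genes the effects in fat and in liver both passed the test with opposite signs, and 3 of these had risen in fat. Jun fell in liver to 4.21 ± 0.613 FPKM with the conjugate, against 11.4 ± 2.099 FPKM with vehicle, and the difference was 1.92 ± 0.24 (adjusted p = 0.000105). Gstm1 fell in liver to 689 ± 121 FPKM with the conjugate, against 1190.5 ± 341 FPKM with vehicle (difference 1.65 ± 0.26, adjusted p = 0.00144). Fads1 fell in liver to 145 ± 37.4 FPKM with the conjugate, against 226 ± 26 FPKM with vehicle (difference 1.45 ± 0.22, adjusted p = 0.00134).

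Among the falls in fat, Angptl8 was at 43.05 ± 20.3 FPKM with the conjugate and 35.8 ± 3.63 FPKM with vehicle in liver (difference -1.998 ± 0.42, adjusted p = 0.00918). Chchd10 rose in liver to 302 ± 28.8 FPKM with the conjugate, against 250.2 ± 16.1 FPKM with vehicle, the fourth gene with opposite signs (difference -1.73 ± 0.33, adjusted p = 0.00549). Gk was at 29.2 ± 4.39 FPKM with the conjugate and 33.4 ± 1.67 FPKM with vehicle in liver (difference -0.83 ± 0.16, adjusted p = 0.00631). Sterol genes fell in liver too: of 24 cholesterol genes tested in liver, 16 fell and 0 rose with a median of -0.72, and none of the 10 called in fat had an effect that differed between the tissues at an adjusted p under 0.05. Sqle, the largest of these differences, had a log2 fold change of -0.60 in fat and -2.18 in liver (difference 1.58 ± 0.54, adjusted p = 0.103). Tfrc also fell in liver, to 2.68 ± 0.564 FPKM with the conjugate, against 5.61 ± 1.47 FPKM with vehicle, and its difference of -0.20 ± 0.23 did not pass the test (adjusted p = 0.775).

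**Figure D5:**
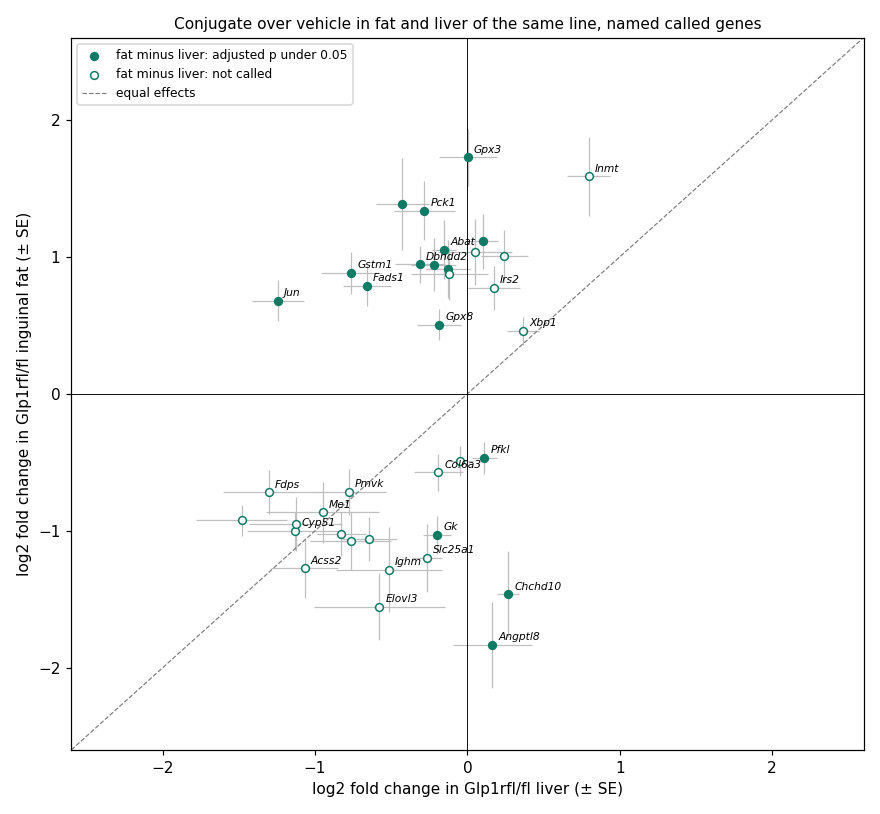
Log2 fold change, conjugate over vehicle, with model SE, in Glp1rfl/fl inguinal fat (vertical) against Glp1rfl/fl liver (horizontal) for the named genes called in fat and tested in liver, filled where the effect differed between the tissues, with gene names where space allows. Gpx3 and Angptl8 lie near 0 on the horizontal axis (0.0023 and 0.16), whereas the sterol genes shown lie in the lower left quadrant, near the line of equal effects. Sqle, the sterol gene called in fat whose effects differed most between the tissues, is not among the genes shown.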

How the data were processed

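The deposited tables give FPKM per gene symbol, computed by the authors with RSEM per the submitters' processing notes; its version and the aligner, build and annotation are not stated in the sources used here. Per the labels' protocols, stranded poly(A) libraries were sequenced on a NovaSeq X. The tables hold no counts, so depth was estimated from low values, as an approximate figure. FPKM is relative within a library, so abundant transcripts of other cells lower all other values.

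Here, log2(FPKM + 1) of genes at 1 FPKM or more in at least 5 of 15 libraries was fitted with limma 3.58.1 in R 4.3.3 (all 3 groups, mean-variance trend, two-sided Benjamini-Hochberg adjustment), and Python 3.11.15 drew the figures. Fold changes are on that scale and understate the change of low genes. Differences between lines or tissues were interaction contrasts over 30 libraries. The fit was tested on simulated data. Members and the 45 gene lists were chosen with earlier results of these data known. Named genes were the 15 called genes with the largest rise and the 15 with the largest fall, given groups without overlap and a higher mean of at least 5 FPKM, gene models with no name left out, up to 6 called members of each list (or the 3 with the smallest p where fewer than 3 were called), the receptors and Wnt1, and the largest differences of the 2 interaction contrasts. Some genes that the rule names are not reported here. Members of a list named beyond these were chosen after their values were seen. Promoters were RefSeq sequences of GRCm38.p6. Replicates were separate samples by label, and p-values measure the spread between them. Replicate numbers were checked for pairing by the correlation of same-numbered deviations. Alternatives were another pseudocount, other filters, rescalings, a replicate block, other sets of libraries, array weights, robust empirical Bayes, terms for B cell level and depth, and each library left out.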

Additional observations from a re-analysis of the deposited data

Results flagged for a closer look

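In 6 of 96 groups of 5 libraries examined for the 48 called named genes, 1 library lay apart from the rest by a gap above 0.71 of the range of its group (Dixon's 95% limit), which chance gives for about 1 group in 20. In the conjugate group they were C7 in replicate 5 at 64.5 FPKM, Ebf2 in replicate 5 at 8.59 FPKM and Ncan in replicate 2 at 6.43 FPKM. In the vehicle group they were Ighm at 1549 FPKM, Pfkl at 33.2 FPKM and Vnn1 at 1.15 FPKM, each in replicate 2. Conjugate replicate 5 had a macrophage level of 6.15 and vehicle replicate 2 a B cell level of 6.56, and their part in these values was not tested.

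For 16 of the called genes the conjugate effect in fat differed from that in liver by the interaction contrast (adjusted p under 0.05). The difference in log2 fold change, fat minus liver, was positive for Jun (1.92), Vnn1 (1.81), Gpx3 (1.73), Gstm1 (1.65), Pck1 (1.62), Fads1 (1.45), Dbndd2 (1.26), Abat (1.21), Efemp1 (1.17), F3 (1.04), Podn (1.01) and Gpx8 (0.69). It was negative for Angptl8 (-1.998), Chchd10 (-1.73), Gk (-0.83) and Pfkl (-0.58). Podn, F3, Efemp1, Gpx3, Dbndd2 and Gpx8 were under 6 FPKM in both liver groups, where the log2 scale with a pseudocount of 1 damps a change.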

How the results depend on the processing

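All 48 called named genes kept their direction under the 25 alternatives, and 17 were called under each one that tested them: Gpx3, Chrdl1, Pck1, Podn, Dbndd2, Gstm1, Angptl8, S100a8, Adam12, Scd2, Acss2, Lss, Cyp51, Mvd, Gk, Tfrc and Elovl3, the last of which passed the filter only through vehicle and knockout libraries. The other 31 lost the call under at least 1. These 48 genes were chosen for being called, and the alternatives refit the same libraries. That they kept their direction was therefore largely fixed by the choice. The 430 calls became 146 with no filter, 240 with median-of-ratios scaling, 130 with quantile normalization, 58 with only the 2 groups compared and 79 with a depth term. They became 2593 without the lymphoid-rich libraries, 5556 with array weights and 2865 with a B cell term. Added after the data were seen, they were 3562 without the lymphoid-rich libraries and conjugate replicate 5, and 1767 with the 10 libraries less vehicle replicate 2. Leaving out 1 library gave 73 to 1076 calls. Same-numbered libraries did not pair (correlations of 0.47, -0.40, -0.037, 0.19 and 0.054), and the replicate block, which takes degrees of freedom, gave 83 calls. The difference between lines stayed at 0 calls under its 9 alternatives of processing and with each of 20 libraries left out, the replicate block included. The 369 fat-minus-liver calls became 580 with no filter, 1114 without the lymphoid-rich libraries, 313 with the replicate block, and 191 to 641 with 1 library left out. The cause was not tested. In the cholesterol list, 3 to 20 of the tested genes were called lower across alternatives, against 10 in the fit reported. Depth limits genes near the floor, such as Glp1r, Dio2 and Ucp1.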

Other observations

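Of 18 circadian clock genes tested, 0 were called and 13 had a positive log2 fold change, with a median of 0.34, against 59.9% positive and a median of 0.047 over all genes tested. Without the lymphoid-rich libraries 3 were higher and 2 lower, against 14.7% higher and 5.74% lower over all genes. Per2, a repressor of the clock, averaged 9.72 ± 2.199 FPKM with the conjugate and 5.82 ± 1.701 FPKM with vehicle (adjusted p = 0.0582). The time of day at collection is not given in the sources used here.

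Among secreted adipocyte proteins, 0 of 17 were called, against 2.31% higher and 1.08% lower over all genes. Without the lymphoid-rich libraries 1 of the 17 was higher and 0 were lower, against 14.7% higher and 5.74% lower over all genes. Cfd, which encodes the complement protease adipsin, had 1802, 1765, 2257, 2021 and 628 FPKM with the conjugate and 1119.6, 379, 719.6, 653 and 469 FPKM with vehicle (log2 fold change 1.32 ± 0.37, adjusted p = 0.0653). Its value in the macrophage-rich conjugate replicate 5 lay within the vehicle range, and without that library and the lymphoid-rich ones, a comparison chosen after the values were seen, the log2 fold change was 1.47 (adjusted p = 0.00391). Lep, the gene of leptin, averaged 1023 ± 286 FPKM with the conjugate and 1351 ± 329 FPKM with vehicle (adjusted p = 0.353), and Adipoq, that of adiponectin, 2353 ± 354 FPKM with the conjugate and 2138 ± 663 FPKM with vehicle (adjusted p = 0.807). Of the receptors that restrain or drive lipolysis, Hcar1, the lactate receptor, had 29.4, 26.2, 38.9, 34.5 and 34.6 FPKM with the conjugate and 13.7, 12.4, 21.9, 25.4 and 18.4 FPKM with vehicle (adjusted p = 0.0868). Adrb3, the main adrenergic receptor of mouse adipocytes, averaged 59.7 ± 13.9 FPKM with the conjugate and 37.1 ± 13.5 FPKM with vehicle (adjusted p = 0.334).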
